A study of Rattus norvegicus with 8 samples.

Results

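The extracellular matrix of the dorsal spinal cord was examined through 47 genes for proteoglycans, matrix glycoproteins, elastic fibre proteins, cross-linking enzymes and components of perineuronal nets. The rule picks them by name and uses no measured value. The list and its classes were, however, chosen with earlier results of these data known. Of the 47 genes, 44 had a probe set with a single gene symbol on the array, out of 14506 genes in all. Tnc, Thbs2 and Nid1 were not measured here. Each measured gene was read by 1 probe set. Of the 44, 29 were placed with fibroblast matrix, 7 with neural matrix (Acan, Bcan, Ncan, Hapln1, Hapln2, Hapln4 and Tnr) and 8, which both fibroblasts and cells of the cord are known to make, in a mixed class.

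All tissue was ipsilateral dorsal lumbar cord of adult male Wistar rats, taken 14 days after spinal nerve transection. In the HDACI group, 4 rats received MS-275 (an inhibitor of class I histone deacetylases) into the intrathecal space from an osmotic pump at 30 nmol/d, and 4 rats received the vehicle, DMSO in saline. Animals of both groups were therefore nerve-injured and carried a pump and catheter, and uninjured cord was not part of this comparison. The deposited values are log2 RMA levels, on which a difference of 1 is a doubling and which are relative within an array, so that a drop common to most of the transcriptome would go unnoticed.

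Fibroblasts of the meninges and of vessel walls secrete collagens, decorin-type proteoglycans, fibronectin and elastic microfibrils. Neurons and glia of the spinal cord build a different matrix of hyaluronan, lecticans, link proteins and tenascin-R, which condenses into perineuronal nets around certain neurons and restricts plasticity. Peripheral nerve, such as the roots that enter the dorsal cord, has its own connective tissue sheaths rich in decorin and lumican.

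Marker genes of several cell types were measured. Mean levels of the astrocyte, oligodendrocyte and neuron marker lists lay between 11.5 and 12.6 on every array, while the upper quartile of 1105 olfactory receptor genes, taken as the level of genes not used in cord, was 5.91. Schwann cell markers, of which Pmp2 reached 12.15, and motor neuron markers were also above this level in tissue labelled dorsal cord. So were the array means of the skeletal muscle, bone and cartilage, and sensory ganglion marker lists, at 6.71 to 7.47. Passing this level therefore does not show that a cell type was present. All 44 matrix genes had a mean above the olfactory receptor level, the dimmest being Omd at 6.31 and Postn at 6.34. Array medians ran from 7.95 to 7.98 and arrays correlated at 0.993 to 0.997 across probe sets. HDACI replicate 2 stood apart in matrix genes, being the highest of the 8 arrays for 31 of the 44 (70.5%) against 16.1% of all genes, so results that it moves are given with and without it.

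No matrix gene had a Benjamini-Hochberg adjusted p under 0.05 in limma, and 0.0% of all 14506 genes with a single symbol had one. The authors, who tested all probe sets, reported a single cord gene past false discovery rate correction at 0.05, a mitochondrial transfer RNA. At an unadjusted p under 0.01, 7 matrix genes were higher with HDACI (Fbln1, Ltbp2, Bgn, Sulf1, Fndc1, Aebp1 and Ncan), where 0.607% of all genes were. A single one was lower (Hapln1), where 0.855% of all genes were, and 36 passed in neither direction. In 7 genes the groups did not overlap and HDACI was higher (Fbln1, Ltbp2, Bgn, Fndc1, Fbn1, Fn1 and Ncan), against 1.42% of all genes, and in Hapln1 they did not overlap and HDACI was lower, against 3.6%. For 4 arrays against 4 the exact permutation test (two-sided) cannot go below 0.0286, the value of such a separation. At p under 0.05, 11 were higher, against 2.79% of all genes, and 1 lower, against 4.96%. The adjusted p of each of the 8 genes called at 0.01 was 0.61 in limma.

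Without HDACI replicate 2, 3 genes remained higher at p under 0.01 (Bgn, Fbln1 and Fndc1), against 0.462% of all genes, and Hapln1 remained lower, against 0.572%. At p under 0.05, 12 were higher, against 2.46%. No overlap was again seen in 7 genes higher and 1 lower, where 2.7% and 5.23% of all genes had none, but leaving out an array can only keep or raise such counts. The number of genes called higher was also 2 without HDACI replicate 4, 3 without vehicle replicate 1, 4 without vehicle replicate 3 and 2 without vehicle replicate 4. Fbln1 was the only one of the 8 whose p stayed under 0.01 with any 1 of the 8 arrays left out.

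**Figure D1:**
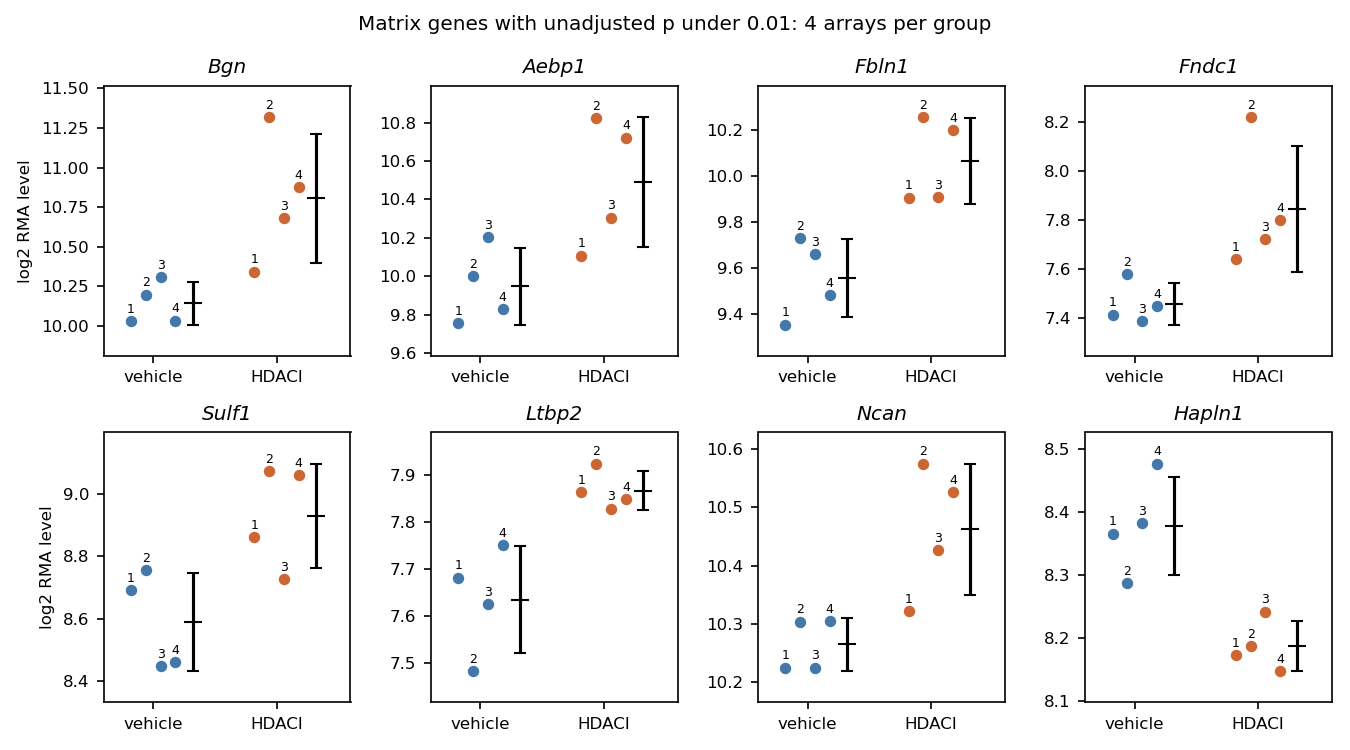
Levels (log2 RMA, y axis, scaled to each gene) of the 8 matrix genes with an unadjusted limma p under 0.01, in 4 vehicle and 4 HDACI arrays numbered by replicate, with bars at the mean ± SD. HDACI arrays lie above vehicle arrays in Bgn, Fbln1, Fndc1, Ltbp2 and Ncan, below them in Hapln1, and overlap them in Aebp1 and Sulf1.

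Of the 7 neural matrix genes, 1 was higher, 1 was lower and 5 passed in neither direction, with a median log2 difference (HDACI minus vehicle) of -0.02, against -0.01 over all genes. Both called genes sit beside an uncalled one in the rat genome (GRCr8), with 0 protein-coding genes between them. Ncan and Hapln4 are neighbours on chromosome 16, and Hapln1 and Vcan on chromosome 2. The 250 bases before the start of Ncan, Hapln4 and Hapln1 are shown, since Ncan and Hapln1 are the called neural genes and Hapln4 is the uncalled neighbour of Ncan. The difference in response between neighbours was not tested. Sequences are from RefSeq (GRCr8), 5′ to 3′ on the strand of the gene, and capitals mark a GC box (GGGCGG or CCGCCC) or a TATA box (TATAAA or TTTATA).
Ncan, chr16:19335657-19335906, plus strand: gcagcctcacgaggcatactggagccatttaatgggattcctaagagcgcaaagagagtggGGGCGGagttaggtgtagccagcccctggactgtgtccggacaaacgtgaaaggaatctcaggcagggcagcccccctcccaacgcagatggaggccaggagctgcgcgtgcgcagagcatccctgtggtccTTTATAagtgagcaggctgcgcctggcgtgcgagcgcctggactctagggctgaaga
Hapln4, chr16:19375174-19375423, minus strand: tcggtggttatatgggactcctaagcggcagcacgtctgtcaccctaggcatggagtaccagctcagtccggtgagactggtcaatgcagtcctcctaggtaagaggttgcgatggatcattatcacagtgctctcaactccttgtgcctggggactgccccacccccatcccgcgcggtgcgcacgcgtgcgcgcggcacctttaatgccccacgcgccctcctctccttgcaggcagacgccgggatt
Hapln1, chr2:22366717-22366966, plus strand: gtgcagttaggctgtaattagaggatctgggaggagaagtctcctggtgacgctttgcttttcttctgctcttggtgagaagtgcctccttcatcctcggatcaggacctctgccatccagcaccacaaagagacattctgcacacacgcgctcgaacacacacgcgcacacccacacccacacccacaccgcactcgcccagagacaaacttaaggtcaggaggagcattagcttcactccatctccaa
The Ncan sequence holds 1 GC box and 1 TATA box, and neither motif was found in the other two. Among all 27457 promoters of the same length, 32.4% held a GC box and 13.1% a TATA box on either strand. Of the 33 matrix genes with a promoter sequence, 15 (45.5%) held a GC box and 4 (12.1%) a TATA box. The AP-1 motif TGANTCA was in 1 of them (3.03%, against 6.36% of all promoters), and the CCAAT box (CCAAT or ATTGG) in 11 (33.3%, against 34.3%). These matches describe letters and not binding. GC boxes were also found in neural and mixed genes without a call, 3 in Acan and 1 each in Bcan and Vcan.

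Hapln1, the link protein that fastens lecticans to hyaluronan, had levels of 8.17, 8.19, 8.24 and 8.15 in HDACI replicates 1 to 4. In vehicle replicates 1 to 4 it had 8.37, 8.29, 8.38 and 8.48. Every HDACI array was below every vehicle array, and the difference was -0.19 ± 0.05 (SE, 95% interval -0.30 to -0.08, limma p = 0.0033, exact permutation p = 0.0286). It was -0.19 again without HDACI replicate 2 (limma p = 0.0078, exact permutation p = 0.0571), while without HDACI replicate 4 it was -0.18 and p was 0.0119. Of 7 measured neuron markers and 3 motor neuron markers, 0 were called at p under 0.01. At p under 0.05, 1 neuron marker and 2 motor neuron markers were lower and 0 were higher, where 4.96% of all genes were lower. The median differences of the lists were -0.05 and -0.75, and -0.03 and -0.73 without HDACI replicate 2. The mean of the neuron markers ran from 12.17 to 12.31 in HDACI and from 12.30 to 12.43 in vehicle arrays, and that of the motor neuron markers from 7.39 to 8.23 and from 7.83 to 9.27. The group ranges of both marker means overlap. Their part in the Hapln1 difference was not tested, and in whole tissue fewer cells of a type and less RNA per cell cannot be told apart.

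Ncan encodes neurocan, a lectican of the brain and cord that astrocytes and neurons make. Its levels were 10.32, 10.57, 10.43 and 10.53 in HDACI replicates 1 to 4, and 10.22, 10.30, 10.22 and 10.30 in vehicle replicates 1 to 4. The groups did not overlap, though HDACI replicate 1 lay only just above the highest vehicle arrays. The difference was 0.20 ± 0.06 (SE, limma p = 0.0084, exact permutation p = 0.0286), a fold of 1.15. It stayed between 0.16 and 0.24 with any array left out, but its p was under 0.01 in only 1 of these 8 fits, the one without HDACI replicate 1. With HDACI replicate 2 left out it was 0.16 (limma p = 0.0229, exact permutation p = 0.0286). The mean of 7 astrocyte markers ran from 11.56 to 11.67 in HDACI and from 11.48 to 11.64 in vehicle arrays, which overlap, and its part in the Ncan difference was not tested. Across the 8 arrays Ncan had r = 0.796 with the mean of the fibroblast markers, described below with its tests.

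The other 5 neural genes overlapped between groups. Acan, the aggrecan core of perineuronal nets, had 8.53, 8.59, 8.54 and 8.58 in HDACI and 8.56, 8.61, 8.59 and 8.56 in vehicle arrays. Bcan (brevican) had 11.12, 11.18, 11.21 and 11.16, and then 11.19, 11.16, 11.14 and 11.13. Both were thus level across the 8 arrays, with differences of -0.02 (95% interval -0.10 to 0.07) and 0.01 (-0.07 to 0.10), and of -0.03 and 0.01 without HDACI replicate 2. Tnr, tenascin-R, which cross-links lecticans, had 10.56, 10.55, 10.46 and 10.56 in HDACI and 10.55, 10.53, 10.56 and 10.55 in vehicle arrays. Only HDACI replicate 3 was lower than the rest, and the difference was -0.01 (-0.10 to 0.08).

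Hapln2 is the link protein of nodes of Ranvier, and Hapln4 is one of perineuronal nets. Hapln2 had 11.98, 12.25, 12.01 and 12.27 in HDACI and 12.23, 12.20, 12.22 and 11.97 in vehicle arrays. Low arrays occurred in both groups, and the difference was -0.03 (95% interval -0.22 to 0.17), and -0.06 without HDACI replicate 2. Hapln4 had 10.41, 10.26, 10.51 and 10.47 in HDACI and 10.35, 10.44, 10.46 and 10.49 in vehicle arrays. HDACI replicate 2 was the lowest, and the difference of -0.02 (-0.16 to 0.11) became 0.03 without it. Of the 5 intervals, only that of Hapln2 reaches the -0.19 of Hapln1.

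Vcan, versican, which fibroblasts, glia and oligodendrocyte precursors all make, completed the lecticans. Its HDACI levels of 9.24 to 9.58 enclosed the vehicle levels of 9.37 to 9.50, with a difference of 0.02 (95% interval -0.15 to 0.19) that became -0.03 without HDACI replicate 2. Its neighbour Hapln1 was thus the only 1 of that pair with a call, and Bcan and Hapln2, also side by side on chromosome 2, were both without one.

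Among the 8 small leucine-rich proteoglycans, which bind collagen fibrils and growth factors, 1 was higher at p under 0.01 and 0 were lower, with a median difference of 0.29 that was 0.12 without HDACI replicate 2. Bgn, biglycan, had 10.34, 11.32, 10.68 and 10.88 in HDACI and 10.03, 10.20, 10.31 and 10.03 in vehicle arrays. The groups did not overlap, HDACI replicate 2 was the highest, and replicate 1 was just above vehicle replicate 3. The difference was 0.66 ± 0.17 (SE, limma p = 0.0040, exact permutation p = 0.0286), a fold of 1.58, and 0.49 without HDACI replicate 2 (limma p = 0.0038, exact permutation p = 0.0286). Its p rose to 0.0121, 0.0126 and 0.0128 when HDACI replicate 4, vehicle replicate 1 or vehicle replicate 4 was left out.

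Prelp and Aspn, which bind collagen in connective tissue, were higher at p under 0.05 but not at p under 0.01. Prelp had 9.79, 10.63, 9.92 and 10.27 in HDACI and 9.58, 9.89, 9.65 and 9.43 in vehicle arrays, so that HDACI replicate 1 overlapped vehicle replicate 2. The difference was 0.51 ± 0.17 (SE, limma p = 0.0148, exact permutation p = 0.0571) and 0.35 without HDACI replicate 2 (limma p = 0.0267, exact permutation p = 0.0857). Aspn, asporin, had 6.70, 8.79, 7.26 and 6.91 in HDACI and 6.15, 6.61, 6.74 and 6.46 in vehicle arrays. HDACI replicate 2 was 1 log2 unit or more above all others, and the difference of 0.93 ± 0.39 (SE, limma p = 0.0422, exact permutation p = 0.0571) was 0.47 without it (limma p = 0.0193, exact permutation p = 0.0857). Aspn and Prelp have as nearest protein-coding neighbours other members of the family (Omd and Fmod), whose differences were 0.12 and 0.40 with p values of 0.639 and 0.0918 in limma.

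Dcn and Lum, decorin and lumican, lie next to each other on chromosome 7 and had another pattern. Dcn had 10.47, 12.15, 11.29 and 10.61 in HDACI and 11.82, 12.33, 10.63 and 11.20 in vehicle arrays. Lum ran from 6.76 to 8.86 in HDACI and from 6.72 to 8.42 in vehicle arrays. High and low arrays occurred in both groups, the SD within each group was 0.74 or more, and the differences were -0.36 (95% interval -1.33 to 0.60) and -0.09 (-1.26 to 1.09). They were -0.70 and -0.53 once HDACI replicate 2 was left out, with p of 0.099 and 0.26 in limma.

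Omd (osteomodulin), the dimmest of this family, had 6.07, 7.08, 6.16 and 6.15 in HDACI and 5.75, 6.47, 6.48 and 6.31 in vehicle arrays. Only HDACI replicate 2 exceeded the vehicle range, and the difference of 0.12 became -0.12 without it. Fmod and Ogn (fibromodulin and osteoglycin) had differences of 0.40 and 0.19, which were 0.20 and 0.04 without that array.

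Fibronectin and the fibulins link cells, basement membranes and elastic fibres, and 1 of the 6 genes of this class was higher at p under 0.01. Fbln1, fibulin 1, had 9.90, 10.25, 9.91 and 10.20 in HDACI and 9.35, 9.73, 9.66 and 9.48 in vehicle arrays. No array overlapped, and HDACI replicates 2 and 4 were highest. The difference was 0.51 ± 0.11 (SE, 95% interval 0.27 to 0.75, limma p = 9.2e-04, exact permutation p = 0.0286), a fold of 1.42. Leaving out HDACI replicate 2 gave 0.45 (limma p = 0.0028, exact permutation p = 0.0286), and with each other array left out it was between 0.44 and 0.57.

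Fn1, fibronectin, had 10.13, 11.22, 10.05 and 10.11 in HDACI and 9.74, 9.94, 9.90 and 9.97 in vehicle arrays. The groups were separate, but HDACI replicate 2 was more than 1 log2 unit above the other 3, which lay close over the vehicle arrays. The difference was 0.49 ± 0.23 (SE, limma p = 0.0628, exact permutation p = 0.0286) with it and 0.21 without it (limma p = 0.0101, exact permutation p = 0.0286). Fbln2 ran from 8.26 to 8.77 in HDACI and from 8.40 to 8.71 in vehicle arrays, with a difference of -0.08, and of -0.18 without HDACI replicate 2. Fbln5, Efemp1 and Efemp2, which guide elastic fibre assembly, overlapped between groups with differences of 0.07, 0.02 and 0.11 and no p under 0.05. With HDACI replicate 2 left out they were -0.04, -0.23 and 0.07, so that Fbln5 and Efemp1 changed sign.

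Of the 5 genes for elastin and its microfibrils, none was called at p under 0.01 and the median difference was 0.18, which fell to 0.03 without HDACI replicate 2. Fbn1, fibrillin 1, the main microfibril protein, had 8.24, 8.95, 8.35 and 8.46 in HDACI and 8.21, 8.18, 8.15 and 8.14 in vehicle arrays. Every HDACI array was higher, replicate 1 by little. The difference was 0.33 ± 0.13 (SE, limma p = 0.0303, exact permutation p = 0.0286), and 0.18 without HDACI replicate 2 (limma p = 0.0123, exact permutation p = 0.0286). Fbn2 ran from 7.12 to 7.23 in HDACI and from 6.94 to 7.14 in vehicle arrays, and Mfap4 from 8.73 to 9.65 and from 8.20 to 9.15. Their differences of 0.08 and 0.24 were 0.08 and 0.03 without HDACI replicate 2. Eln itself had a difference of 0.02 (95% interval -0.26 to 0.30), or -0.05 without the array, and that of Mfap5 turned from 0.18 to -0.20 without HDACI replicate 2.

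Latent TGF-beta binding proteins hold the latent growth factor in the matrix or, in the case of Ltbp2, bind fibrillin without it, and 1 of the 4 was higher at p under 0.01. Ltbp2 and Fndc1 (described with the collagen-associated genes) are the called genes of the fibroblast class whose promoters are shown, for comparison with Ncan and Hapln1. Capitals mark a GC box as before.
Ltbp2, chr6:110257299-110257548, minus strand: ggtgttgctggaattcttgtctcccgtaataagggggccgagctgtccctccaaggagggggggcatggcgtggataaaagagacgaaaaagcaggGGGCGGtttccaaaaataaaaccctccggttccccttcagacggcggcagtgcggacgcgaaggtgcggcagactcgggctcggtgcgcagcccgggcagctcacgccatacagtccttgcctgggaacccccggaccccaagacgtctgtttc
Fndc1, chr1:49686606-49686855, plus strand: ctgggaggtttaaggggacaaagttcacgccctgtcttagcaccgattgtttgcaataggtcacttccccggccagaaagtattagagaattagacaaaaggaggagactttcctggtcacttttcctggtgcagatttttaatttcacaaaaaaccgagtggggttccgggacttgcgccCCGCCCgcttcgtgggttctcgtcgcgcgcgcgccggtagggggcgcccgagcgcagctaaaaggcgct
Each holds 1 GC box and no TATA box in these 250 bases, and Aebp1, also called and not shown, holds 2 GC boxes. Bgn, Fbln1 and Sulf1 were not among the promoters used.

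Ltbp2 had 7.86, 7.92, 7.83 and 7.85 in HDACI and 7.68, 7.48, 7.63 and 7.75 in vehicle arrays. The HDACI arrays lay close together above all vehicle arrays, and replicate 2 did not stand apart. The difference was 0.23 ± 0.06 (SE, limma p = 0.0033, exact permutation p = 0.0286), a fold of 1.17, and 0.21 without HDACI replicate 2, where p was 0.0104. The other 3 overlapped: Ltbp1 differed by 0.23 and Ltbp4 by 0.09, which were 0.13 and 0.06 without HDACI replicate 2. Leaving out vehicle replicate 1 gave 0.07 for Ltbp1, and leaving out vehicle replicate 3 gave 0.05 for Ltbp4. Ltbp3 ran from 9.51 to 9.70 in HDACI and from 9.58 to 9.65 in vehicle arrays, a difference of -0.02 (95% interval -0.13 to 0.09).

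Both collagen-associated glycoproteins were higher. Aebp1, which binds fibrillar collagen, had 10.11, 10.82, 10.30 and 10.72 in HDACI and 9.76, 10.00, 10.20 and 9.83 in vehicle arrays. Vehicle replicate 3 overlapped HDACI replicate 1, and the difference was 0.54 ± 0.16 (SE, limma p = 0.0079, exact permutation p = 0.0571). It was 0.43 without HDACI replicate 2 (limma p = 0.0216, exact permutation p = 0.0857), and its p was above 0.01 in 5 of the 8 fits that left out an array, those without HDACI replicate 2 or 4 or vehicle replicate 1, 2 or 4. Fndc1, a protein with fibronectin type III domains, had 7.64, 8.22, 7.72 and 7.80 in HDACI and 7.41, 7.58, 7.39 and 7.45 in vehicle arrays. The groups did not overlap, and the difference was 0.39 ± 0.11 (SE, limma p = 0.0074, exact permutation p = 0.0286) with HDACI replicate 2 and 0.26 without it (limma p = 0.0024, exact permutation p = 0.0571). The p of Fndc1 was above 0.01 without HDACI replicate 4 or vehicle replicate 1, 3 or 4, and the highest of these was 0.0206.

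Lysyl oxidases cross-link collagen and elastin. Loxl1 had 7.70, 8.66, 7.78 and 7.91 in HDACI and 7.32, 7.45, 7.74 and 7.64 in vehicle arrays. The difference was 0.48 ± 0.20 (SE, limma p = 0.0365, exact permutation p = 0.0571) and 0.26 without HDACI replicate 2 (limma p = 0.0339, exact permutation p = 0.114). Lox had 7.19, 8.71, 7.53 and 7.60 in HDACI and 6.65, 7.27, 7.43 and 7.31 in vehicle arrays, and its difference of 0.59 (limma p = 0.0775, exact permutation p = 0.143) was 0.28 without HDACI replicate 2. In both genes that array was the highest and HDACI replicate 1 lay inside the vehicle range.

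Heparan sulfate sulfatases trim sulfate from cell-surface chains and so alter growth factor binding. Sulf1 had 8.86, 9.07, 8.73 and 9.06 in HDACI and 8.69, 8.76, 8.45 and 8.46 in vehicle arrays. Vehicle replicate 2 lay above HDACI replicate 3, and the difference was 0.34 ± 0.10 (SE, limma p = 0.0066, exact permutation p = 0.0571). Leaving out HDACI replicate 2 gave 0.29 (limma p = 0.0203, exact permutation p = 0.114), and 5 of the 8 fits with an array left out had p above 0.01, those without HDACI replicate 1, 2 or 4 or vehicle replicate 3 or 4. Sulf2 ran from 11.05 to 11.27 in HDACI and from 10.97 to 11.19 in vehicle arrays, a difference of 0.04 (95% interval -0.11 to 0.20) that was 0.0009 without HDACI replicate 2.

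None of the 6 matricellular genes and not Nid2, the nidogen of basement membranes, was called. Thbs1, thrombospondin 1, which activates latent TGF-beta, had 7.94, 10.14, 8.14 and 8.02 in HDACI and 7.90, 8.51, 7.93 and 7.89 in vehicle arrays. HDACI replicate 2 was 2 log2 units above the other HDACI arrays, vehicle replicate 2 was the second highest, and the difference of 0.50 was -0.02 without HDACI replicate 2. Spp1, osteopontin, ran from 9.61 to 10.81 in HDACI and from 9.70 to 11.16 in vehicle arrays, with a difference of -0.33 (95% interval -1.08 to 0.41). It was -0.57 without HDACI replicate 2, -0.58 without vehicle replicate 3 and -0.09 without vehicle replicate 2. Sparcl1, an astrocyte and vessel product, was steady at 13.57 to 13.66 on the 8 arrays, and Sparc differed by 0.03 with and -0.02 without HDACI replicate 2. Nid2 differed by -0.01 with that array and -0.11 without it. Postn ran from 6.17 to 6.55 in HDACI and from 6.15 to 6.65 in vehicle arrays, and the difference of Mgp, an inhibitor of calcification, went from 0.27 to -0.07 without HDACI replicate 2.

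The fibroblast and neural classes were then set side by side. Of the 29 fibroblast genes, 25 had a difference above 0, as had 42.1% of all genes, and the median difference was 0.23. With HDACI replicate 2 left out, 19 were above 0, where 41.5% of all genes were, and the median was 0.07. The 6 that changed sign were Omd, Fbln5, Efemp1, Eln, Mfap5 and Mgp. The neural median was -0.02 in both cases, and the mixed class went from 0.03 to -0.02. The fibroblast median thus fell from 0.23 to 0.07 when HDACI replicate 2 was left out, and lay between 0.18 and 0.30 with any other array left out. The medians describe the lists, and no test was made of the difference between them.

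**Figure D2:**
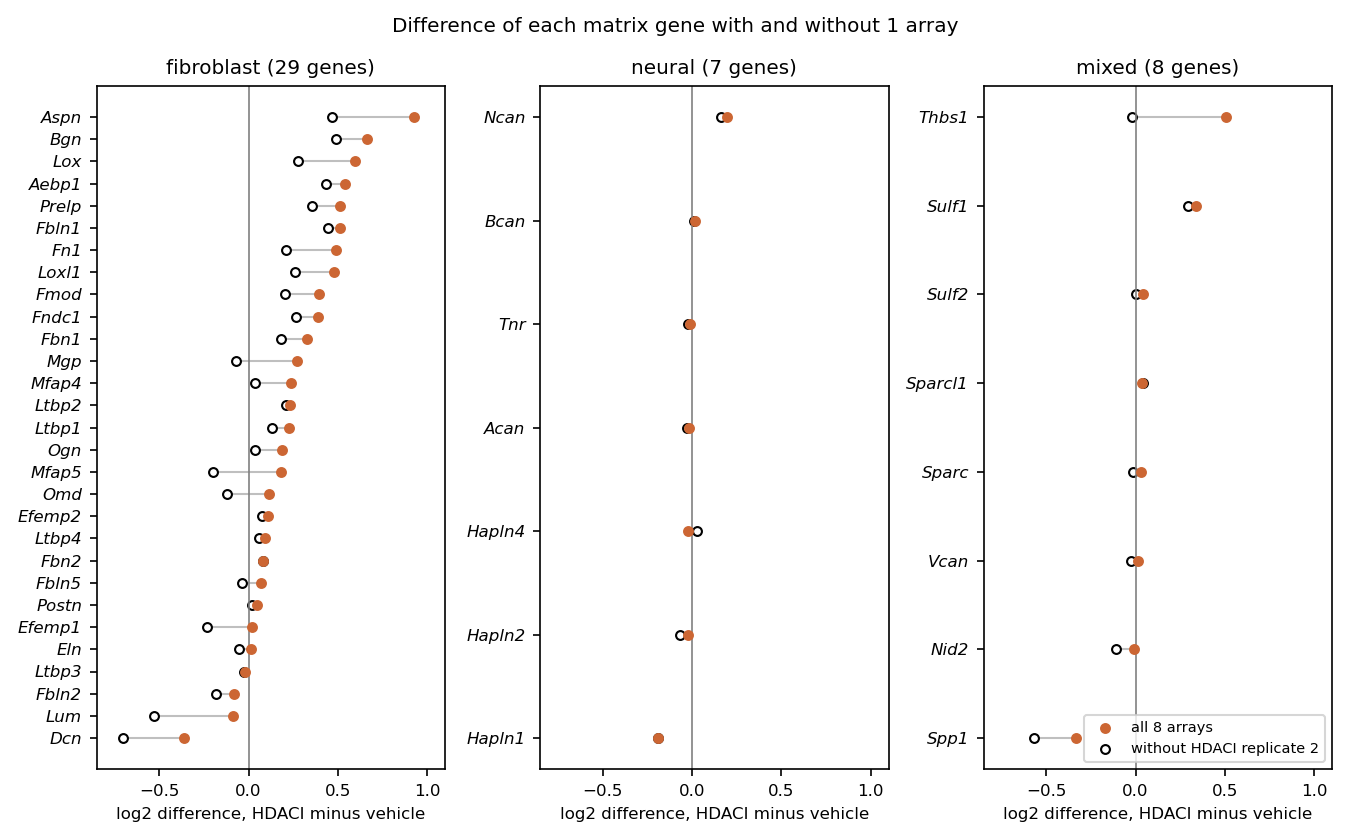
Log2 difference (HDACI minus vehicle, x axis) of each of the 44 matrix genes, by class, with all 8 arrays (filled) and without HDACI replicate 2 (open), joined by a grey line. In the fibroblast class the median falls from 0.23 to 0.07, while the neural points hardly move and Hapln1 stays at -0.19.

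The array means show the samples behind these medians. The mean level of the 29 fibroblast genes was 8.41, 9.26, 8.63 and 8.63 in HDACI replicates 1 to 4, and 8.39, 8.65, 8.45 and 8.45 in vehicle replicates 1 to 4. HDACI replicate 2 was the highest, HDACI replicates 3 and 4 were just below vehicle replicate 2, and HDACI replicate 1 was level with the lowest vehicle array. The mean of the 7 neural genes lay between 10.16 and 10.24 in HDACI and between 10.21 and 10.23 in vehicle arrays. HDACI replicate 2 was the highest array for 24 of 29 fibroblast genes (82.8%), 6 of 8 mixed genes (75%) and 1 of 7 neural genes (14.3%). Fibroblast genes also varied more within the vehicle group, with a median SD of 0.19, against 0.05 for neural genes and 0.08 for all genes.

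**Figure D3:**
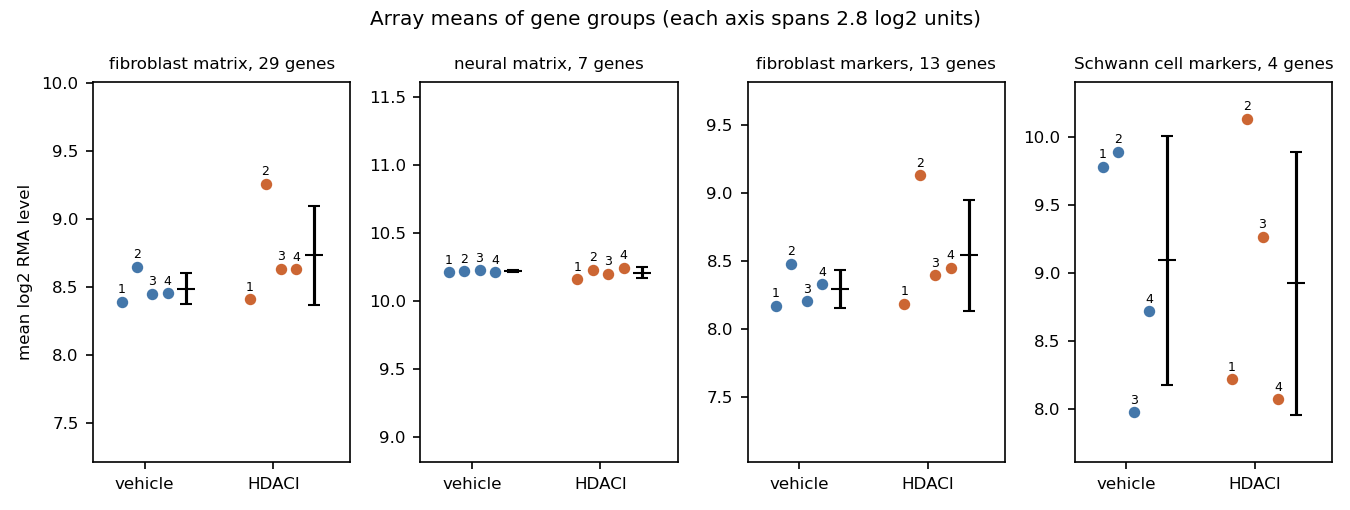
Mean log2 RMA level (y axis, every panel spanning the same width) per array of the fibroblast matrix genes, the neural matrix genes, and the fibroblast and Schwann cell marker genes, with replicate numbers and bars at the mean ± SD of 4 arrays. HDACI replicate 2 is highest in the fibroblast panels, neural means stay within 10.16 to 10.24, and Schwann marker means spread from 8.08 to 10.14 in HDACI and from 7.98 to 9.90 in vehicle arrays.

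Markers of leptomeningeal and perivascular fibroblasts moved with the fibroblast class. The mean of the 13 measured of 17 was 8.19, 9.13, 8.40 and 8.45 in HDACI and 8.17, 8.48, 8.21 and 8.33 in vehicle arrays. The highest was again HDACI replicate 2, and the group means of 8.54 ± 0.41 and 8.30 ± 0.14 (SD, n = 4) gave p = 0.343 in the exact permutation test. None of the 13 markers was called at p under 0.01, and their median difference went from 0.23 to -0.04 without HDACI replicate 2. With their mean as a covariate in limma, a fit added after the data were seen, Bgn, Fbln1, Fndc1 and Ltbp2 had p of 0.0023, 0.0020, 4.1e-04 and 0.0096 and Hapln1 had 0.0097. In that order, the differences of these called genes were 0.45, 0.41, 0.24, 0.23 and -0.19, against 0.66, 0.51, 0.39, 0.23 and -0.19 without the covariate. Aebp1, Sulf1 and Ncan then had p of 0.0214, 0.0229 and 0.0206. Their differences were 0.39, 0.27 and 0.14, against 0.54, 0.34 and 0.20 without it. In that fit 0.496% of all genes were higher and 0.689% lower at p under 0.01. The one gene called at p under 0.01 in any marker list was F13a1 of the perivascular macrophage list, against 0.607% of all genes higher and 0.855% lower. Its difference was 0.54 with an unadjusted p of 0.0056 in limma (adjusted 0.61). Without HDACI replicate 2 the difference was 0.42 and the unadjusted p 0.0131 in limma. The median difference of the 6 macrophage markers was 0.10, and 0.04 without that array.

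Schwann cells, which belong to nerve roots and not to the cord, were measured by 4 of 6 markers, all above the olfactory receptor level. Their mean was 8.22, 10.14, 9.27 and 8.08 in HDACI and 9.78, 9.90, 7.98 and 8.72 in vehicle arrays. High and low arrays occurred in both groups, whose means of 8.93 ± 0.97 and 9.10 ± 0.91 (SD, n = 4) gave p = 0.743 in the exact permutation test.

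A set of matrix genes followed this mean across the 8 arrays. Of 44 relations tested, 9 had an adjusted p under 0.05 for Pearson's r by exact permutation, and 7 of them also for Spearman's rho (Dcn, Lum, Spp1, Nid2, Sparc, Efemp1 and Fbln5). Dcn had r = 0.966 (exact permutation p = 8.9e-04, adjusted 0.0098) and rho = 0.881 (exact permutation p = 0.0072, adjusted 0.0455). Lum had r = 0.952 (exact permutation p = 6.9e-04, adjusted 0.0098) and rho = 0.905 (exact permutation p = 0.0046, adjusted 0.0402). Without HDACI replicate 2 and vehicle replicate 3, the arrays farthest from the median marker mean, r was 0.958 for Dcn and 0.925 for Lum. Within HDACI arrays r was 0.986 for Dcn and within vehicle arrays 0.972. The arrays low in decorin and lumican were therefore those low in Schwann markers, in either group.

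None of the 8 called genes was among these 9. Over the same 8 arrays r was 0.159 for Bgn (exact permutation p = 0.705) with rho = 0 (exact permutation p = 1.0), and without those farthest arrays r was -0.507. For Fbln1 r was -0.04 (exact permutation p = 0.91) with rho = 0.143 (exact permutation p = 0.752), and r was -0.622 without them. Within HDACI and within vehicle arrays r was 0.713 and -0.479 for Bgn, 0.322 and -0.19 for Fbln1, and 0.794 and 0.638 for Fndc1. With the Schwann marker mean as a covariate in limma, also added after the data were seen, all 8 called genes kept p under 0.01 in their direction, Aebp1 having the highest at 0.0099. Prelp and Fbn1 then had p of 0.0065 and 0.0097. In that fit 1.12% of all genes were higher and 1.05% lower. The Schwann marker mean itself differed by only -0.17 between the groups (exact permutation p = 0.743). Adjusting for a mean so alike in both groups can shift their difference only a little, so this fit was no strong check of the calls.

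**Figure D4:**
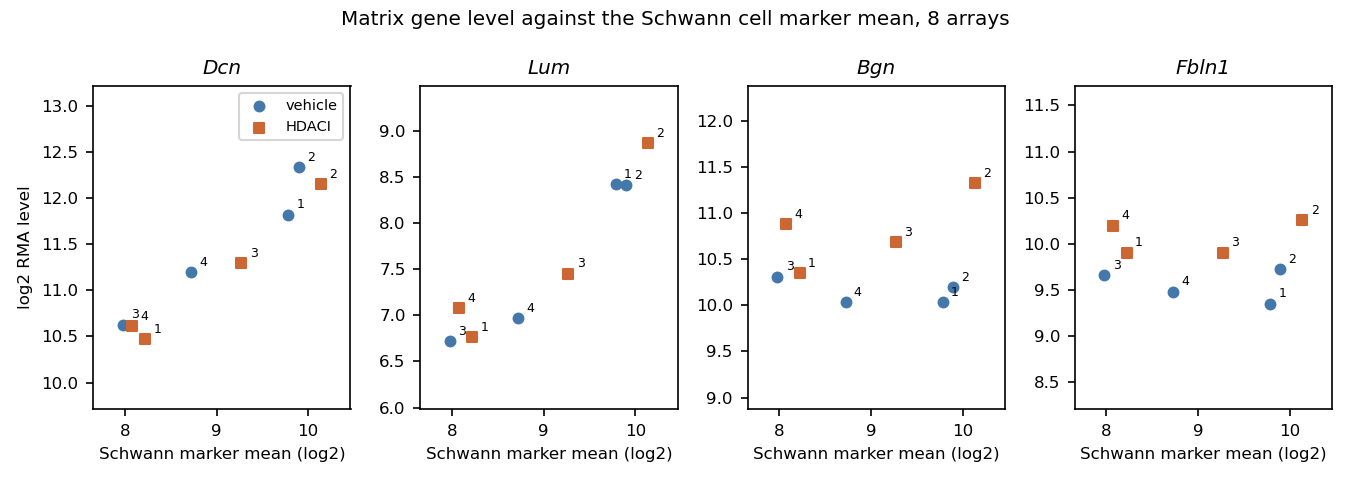
Level (log2 RMA, y axis) of Dcn, Lum, Bgn and Fbln1 against the mean level of 4 Schwann cell markers (log2, x axis) in 4 vehicle (circles) and 4 HDACI arrays (squares), numbered by replicate. Dcn and Lum rise along the axis in both groups (r = 0.966 and 0.952), while in Fbln1 the HDACI arrays lie above the vehicle arrays along its whole length.

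With the fibroblast marker mean, 40 of the 44 matrix genes had r above 0. By exact permutation 9 had an adjusted p under 0.05 for r but none for rho as well. The 9 were Fmod, Ogn, Prelp, Ncan, Ltbp4, Fndc1, Thbs1, Lox and Mgp. Fndc1 had r = 0.904 (exact permutation p = 0.0093, adjusted 0.0455) and rho = 0.69 (exact permutation p = 0.0694, adjusted 0.253). Without HDACI replicate 2 and vehicle replicate 1, the arrays farthest from the median, its r was 0.511. Within HDACI arrays the r of Fndc1 was 0.996 and within vehicle arrays 0.951. For Bgn r went from 0.818 (exact permutation p = 0.0174, adjusted 0.0585) to 0.338, with rho = 0.619 (exact permutation p = 0.115). Ncan, the neural gene called higher, had r = 0.796 (exact permutation p = 0.0065, adjusted 0.0453) and rho = 0.667 (exact permutation p = 0.0831, adjusted 0.253). Its r was 0.587 without those farthest arrays, 0.84 within HDACI arrays and 0.884 within vehicle arrays.

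Genes that act on the same matrix were counted from wider lists. None of 22 enzymes of chondroitin sulfate and hyaluronan synthesis was called at p under 0.01, and their median difference was -0.01 (0.0043 without HDACI replicate 2). The same held for 11 receptors and partners of the neural matrix, with a median of 0.05 (0.03 without that array). Of 7 further small leucine-rich proteoglycans and 11 further elastic fibre and cross-linking genes, 0 were called, with medians of -0.02 and 0.09 (-0.03 and 0.03 without it). The differences of the enzymes lay between -0.19 and 0.25, and those of the receptors between -0.12 and 0.19.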

How the data were processed

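Affymetrix Rat Gene 1.0 ST arrays held dorsal cord RNA of 4 HDACI and 4 vehicle samples, described in the methods as biological replicates. The authors deposited log2 values for 29214 probe sets, made with the R package oligo and RMA (background correction, quantile normalization and a summary per probe set). RMA is also named in the submitters' processing notes, and its version is not stated there.

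Platform symbols were updated by Entrez number through a RefSeq table (GRCr8) for 15279 of the 15310 probe sets with 1 symbol. A further 323 had several symbols and 13581 were not listed. Values were averaged per gene (14506 genes), and groups and replicate numbers came from the sample titles. HDACI and vehicle were compared with lmFit and eBayes of limma 3.58.1 (R 4.3.3), two-sided, without covariate, filter or block, and p values were adjusted by Benjamini-Hochberg over all genes. The prior was worth 3.36 degrees of freedom beside 6 residual, and the number of arrays limits the precision. The code was tested on simulated data. Single genes had an exact permutation test.

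The members, classes and lists were chosen with earlier results of these data known. Values per array are given for neural genes, for genes with p under 0.05 or no overlap between groups, and for the brightest and dimmest of a role, by range where uncalled. Thbs1 was added after its values were seen. Of further lists, genes with p under 0.01 are named. Same-numbered arrays were checked for pairing, and the correlations of their deviations from group means were -0.27, 0.36, 0.04 and 0.06. So few values do not show pairing by number and cannot exclude it, and the highest was that of the arrays numbered 2. Alternatives were trend and robust settings, no moderation, filters on dim genes, further quantile normalization, centring, the highest probe set, all probe sets, array weights, the replicate block, leaving out each array and other class borders. Marker covariates and leaving out both arrays numbered 2 were added after the data were seen. Promoters were the first listed per gene in RefSeq, and those of 11 members were not used here.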

Additional observations from a re-analysis of the deposited data

Results flagged for a closer look

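In 94 groups of 4 arrays (44 genes and 3 class means, each in HDACI and in vehicle), the gap of the most extreme array to its nearest neighbour as a share of the group's range exceeded Dixon's 95% critical value 9 times. Chance alone flags about 5% of such groups. HDACI replicate 2 was the extreme array in 4 of them, all on the high side. It had 7.08 in Omd, where the other HDACI arrays had 6.07 to 6.16, and 11.22 in Fn1, where they had 10.05 to 10.13. It had 10.14 in Thbs1, against 7.94 to 8.14, and 10.82 for the mean of the mixed class, against 10.25 to 10.35.

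The other 5 concerned single genes. HDACI replicate 3 was low in Tnr at 10.46, where the others had 10.55 to 10.56 (rounded to 2 decimals). Among vehicle arrays, replicate 4 was low in Hapln2 at 11.97, against 12.20 to 12.23, and replicate 2 was high in Thbs1 at 8.51, against 7.89 to 7.93. Vehicle replicate 1 was low in Fbn2 at 6.94, against 7.11 to 7.14, and in Ltbp1 at 7.20, against 7.77 to 7.83.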

How the results depend on the processing

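The called genes kept their direction under every alternative run. The count of members higher at p under 0.01 was 7, fell to 2 without moderation of the variances and to 4 with the fibroblast marker covariate, and ran from 2 to 8 with an array left out. The count lower was 1, and 0 with the replicate block, where the p of Hapln1 was 0.0114 in limma, and with the filter at the median, which removed Hapln1 from the genes tested. It ran from 0 to 1 with an array left out. Without HDACI replicate 2 the count higher was 3, and became 1 without moderation and 5 with the filter at the 25th percentile, further quantile normalization, array weights or the replicate block, with a range of 0 to 7 when a further array was left out. The count lower was then 1, and 0 with trend and robust settings, no moderation, the filter at the median, further quantile normalization, the replicate block, either marker covariate or all probe sets, and 0 to 1 with a further array left out. The block changed no other count by over 1.5 times.

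Over all genes 212 had p under 0.01, with 113 to 259 when an array was left out. Without HDACI replicate 2 there were 150, then 227 with trend and robust settings and 72 to 185 with a further array left out. Members with no overlap numbered 7 higher (7 to 14 with an array left out) and 1 lower (1 to 1), counts that leaving out an array cannot lower. The fibroblast median ran from 0.07 (without HDACI replicate 2) to 0.30 with an array left out, and was 0.16 with array weights, 0.07 with the fibroblast covariate and 0.09 with both arrays numbered 2 left out. The SD of the class mean was 0.36 over HDACI arrays, HDACI replicate 2 included, and 0.11 over vehicle arrays. The neural median ran from -0.03 to 0.00 (lowest -0.025, highest -0.0008) with an array left out. Without HDACI replicate 2 the differences of Omd, Fbln5, Efemp1, Eln, Mfap5, Mgp, Thbs1, Sparc, Vcan and Hapln4 changed sign.

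Genes without a call changed sign in some settings. Omd was -0.17 with the fibroblast covariate and -0.049 with both arrays numbered 2 left out. Hapln4 was 0.016 with array weights, 0.021 with the fibroblast covariate and 0.030 without both arrays numbered 2. With the fibroblast covariate Mfap4 was -0.006 and Postn -0.038, and without both arrays numbered 2 Sulf2 was -0.0064. With 1 array left out, Omd ran from -0.12 to 0.21, Bcan from -0.0008 to 0.029, Hapln2 from -0.087 to 0.023, Hapln4 from -0.054 to 0.029, Tnr from -0.024 to 0.011, Ltbp3 from -0.061 to 0.0041, Postn from -0.014 to 0.16 and Sulf2 from -0.0003 to 0.076. The cause of these changes was not tested.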
